A study of Mus musculus with 7 samples.

Results

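The renin-angiotensin genes described here are Agt, Ace, Agtr1a, Agtrap, Atp6ap2, Mas1 and Nr3c2, picked by name from the table of raw counts once Ensembl identifiers had been matched to mouse symbols. These 7 genes were all found among the 20927 genes of the table, and each of the 7 passed the filter for testing (at least 10 counts in at least 3 libraries), as did 13894 genes in total.

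Angiotensinogen, encoded by Agt, is cut by renin and then by angiotensin-converting enzyme (Ace) into angiotensin II, which acts mainly through the type 1 receptor (Agtr1a in rodents). Angiotensin-(1-7), a shorter peptide, is the ligand attributed to the Mas receptor (Mas1), and aldosterone, released by the adrenal gland in response to angiotensin II, acts on the mineralocorticoid receptor (Nr3c2). In the heart the system is known for promoting hypertrophy and fibrosis, and drugs against it are standard treatment in heart failure.

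The study compared hearts of mice with an alanine to aspartate change in titin, the giant spring protein of the sarcomere, with hearts of wild-type mice. RNA was taken from left ventricles of 3 WT mice (replicates 1, 3 and 4) and of 4 homozygous titin A178D mice (replicates 1 to 4), 1 library per heart, all of strain C57BL/6J by their labels. The variant was made by gene editing in C57BL/6N embryonic stem cells that were expanded as clones, also carries a silent change next to it, is present in all cells of the animal, and was backcrossed to C57BL/6J for several generations. No treatment is labelled for either group, and the age and sex of these hearts are not given in the sources used here. Y-linked genes were counted in all 7 libraries, with Kdm5d at 580 counts or more.

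The WT libraries held 51797208, 54245530 and 41102868 counts (replicates 1, 3 and 4), and the A178D libraries 40623300, 52345529, 42174448 and 33080675 (replicates 1 to 4). Levels are given as CPM, a count relative to its library's size as scaled by TMM, and differences as the log2 fold change of A178D over WT from edgeR with its standard error (SE). The A178D replicate 4 library, the shallowest, differed from the rest in a way that followed transcript length. Against the other A178D hearts its median log2 difference was 0.21 over 851 genes of up to 1500 bases and -0.21 over 1358 genes of more than 10000 bases.

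The ventricular label was checked against marker genes. Myl2, the regulatory light chain of ventricular myosin, stood at 12796 ± 654 CPM in WT (SD, n = 3) and 12974 ± 885 CPM in A178D (SD, n = 4). Of the 4 atrial markers, Myl7 and Sln were too low to be tested, while Nppa and Myl4 were higher in A178D without overlap. Myl4 was read at 1.90, 1.89 and 1.85 CPM in WT and at 4.01, 2.14, 2.60 and 3.06 CPM in A178D (log2 fold change 0.65, SE 0.23, adjusted p = 0.171, and 0.46 without A178D replicate 1), and the part of atrial tissue in these values was not tested.

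None of the 7 members passed the edgeR test at an adjusted p of 0.05, against 2.35% of all genes tested (327 of 13894, 145 higher and 182 lower). At an unadjusted p under 0.05 there was 1 member, Agt, against 16.7% of all genes, the share to set beside each such count below. With DESeq2, 1 member (again Agt) was called, against 5.06% of 13153 genes. The genotypes did not overlap for 2 of the 7, Agtrap (higher in A178D) and Nr3c2 (lower), where 16.1% of all genes did not overlap. The median log2 fold change of the 7 members was -0.06 (-0.13 without WT replicate 1 and 0.046 without WT replicate 3), and that of all genes tested 0.0023.

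**Figure D1:**
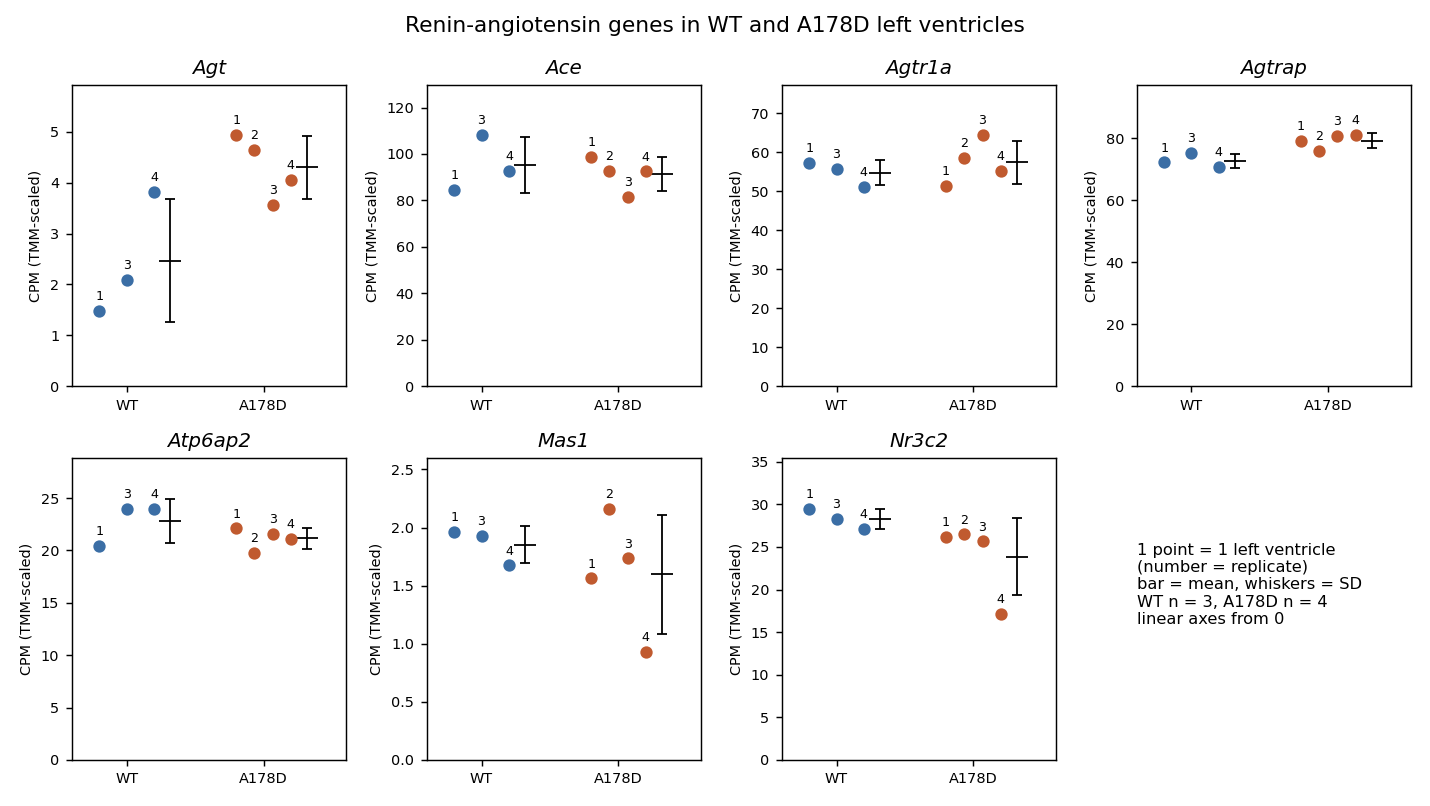
Expression of the 7 renin-angiotensin genes in CPM scaled by TMM, on linear axes from 0, with 1 point per left ventricle (number, replicate) and the mean with SD beside it (WT n = 3, A178D n = 4). Agt was lowest in WT replicates 1 and 3 and reached 3.81 CPM in WT replicate 4, inside the A178D range, and Nr3c2 was lowest in A178D replicate 4, at 17.1 CPM, with replicates 1 to 3 of that genotype from 25.7 to 26.5 CPM.

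Agt, the substrate of the whole cascade, had the largest difference between genotypes among the 7 members. This gene (ENSMUSG00000031980, chromosome 8: 124556534-124569706, minus strand, GRCm38) was read at 1.48, 2.09 and 3.81 CPM in WT replicates 1, 3 and 4. In A178D replicates 1 to 4 it was read at 4.93, 4.65, 3.56 and 4.05 CPM. WT replicates 1 and 3 were below all A178D hearts, while WT replicate 4 lay above A178D replicate 3, so the genotypes overlapped. The mean was 2.46 ± 1.21 CPM in WT (SD, n = 3) and 4.30 ± 0.614 CPM in A178D (SD, n = 4).

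On the log2 scale the Agt difference was 0.82 (SE 0.26, 95% confidence interval 0.25 to 1.39), a fold of 1.77 (1.19 to 2.62), with an adjusted p of 0.133 in edgeR. DESeq2 gave 0.81 with an adjusted p of 0.0486, and over the 10 edgeR, limma-voom and DESeq2 fits of all 7 libraries this was the only call. Leaving out WT replicate 4 gave 1.26 and an adjusted p of 0.0403, in a fit that called 0.593% of 13833 genes, and leaving out WT replicate 1 gave 0.56 with an adjusted p of 0.280. Whether Agt was called therefore depended on the tool and on whether WT replicate 4 was kept. Agt counts were low, 78, 114 and 155 in the WT libraries and 131 to 245 in the A178D libraries. The part of counting error in the spread of Agt was not tested.

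Adipocytes are a known source of angiotensinogen, and adipocyte markers were near the limit of counting. Their summed level (5 genes, Cfd the most abundant per length, none at 0 in every library) was 0.533, 1.36 and 2.09 CPM in WT replicates 1, 3 and 4. In A178D replicates 1 to 4 it was 0.372, 1.59, 1.03 and 0.988 CPM. Both the sum and Agt were lowest in replicate 1 and highest in replicate 4 among the WT hearts, whereas the A178D heart with the highest Agt had the lowest sum. None of the 4 tested adipocyte markers was called, 0 at an unadjusted p under 0.05, with a median log2 fold change of -0.31 (-0.67 without WT replicate 1 and -0.0072 without A178D replicate 1), and the part of such cells in the Agt values was not tested.

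Renin itself was not detected. Ren1 had 0 counts in all 7 libraries, which allows up to 0.0550 to 0.0926 CPM (3 counts in the deepest and the shallowest library, counting error only, with each count taken as 1 fragment, so the limit is higher if both ends of a fragment were counted), and Ren2 was not analysed here.

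Ace, which converts angiotensin I to angiotensin II on endothelial surfaces, differed by less than the spread between hearts. The gene (ENSMUSG00000020681, chromosome 11: 105967945-105989964, plus strand) was read at 84.5, 108 and 92.7 CPM in WT replicates 1, 3 and 4, and at 98.8, 92.9, 81.4 and 92.5 CPM in A178D replicates 1 to 4. WT replicate 3 was highest and A178D replicate 3 lowest, with the other 5 hearts between them and the genotypes overlapping. On the log2 scale the difference was -0.06 (SE 0.09, 95% confidence interval -0.25 to 0.14, adjusted p = 0.805), and it became -0.13 without WT replicate 1 and 0.05 without WT replicate 3. An antisense gene, Gm11651, covers 295 exonic bases of Ace, and since the strand setting of the counting is not given in the sources used here, reads there cannot be told apart.

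Endothelial cells are known to carry this enzyme, and their markers overlapped between genotypes. The summed level (7 genes, Cdh5 the most abundant per length, none at 0 in every library) was 1150.2, 1077 and 1006 CPM in WT and between 1059.7 and 1102 CPM in A178D. None of the 7 was called, 0 at an unadjusted p under 0.05, and their median log2 fold change was 0.03 (-0.04 without WT replicate 4 and 0.06 without A178D replicate 1).

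Chymase (Cma1), a mast cell protease, was read between 0.419 and 1.28 CPM in the 7 hearts (log2 fold change 0.32, SE 0.44, adjusted p = 0.763, and 0.045 without WT replicate 1 to 0.99 without WT replicate 4).

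Of the 18 listed genes of angiotensin production and breakdown, 17 were in the table and 15 were tested. None was called by edgeR, and 2 had an unadjusted p under 0.05, both higher in A178D. The log2 fold changes ran from -0.19 to 0.37 with a median of 0.13 (0.062 without A178D replicate 4), and 12 of the 15 were above 0. Enpep, the aminopeptidase that turns angiotensin II into angiotensin III, stood at 14.4 ± 2.01 CPM in WT and 16.8 ± 2.02 CPM in A178D (log2 fold change 0.23, SE 0.12, adjusted p = 0.377, and 0.35 without WT replicate 1). Ctsd (cathepsin D), the most abundant of the list, stood at 1537 ± 77.2 CPM in WT and 1686 ± 109 CPM in A178D (log2 fold change 0.13, SE 0.07, adjusted p = 0.362), and shares 808 exonic bases with Gm49369 on the same strand. Mast cells, the known source of chymase, were sparse, with summed markers (5 genes, Mcpt4 the most abundant per length, none at 0 in every library) between 2.26 and 5.16 CPM over the 7 hearts. None of the 4 tested mast cell markers was called, 0 at an unadjusted p under 0.05, with a median of 0.03 that changed sign with single libraries (-0.20 without A178D replicate 3 and 0.12 without A178D replicate 1).

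Among the receptors, Agtr1a was the angiotensin II receptor that could be measured. Agtr1a (ENSMUSG00000049115, chromosome 13: 30336441-30382867, plus strand) was read at 57.3, 55.6 and 51.1 CPM in WT and at 51.4, 58.5, 64.4 and 55.3 CPM in A178D. A178D replicate 3 was the highest heart and A178D replicate 1 among the lowest, so that A178D spanned almost the whole WT range. Its log2 fold change was 0.07 (SE 0.08, 95% confidence interval -0.11 to 0.25, adjusted p = 0.729), and it ran from 0.010 without A178D replicate 3 to 0.12 without A178D replicate 1. Its close paralogue Agtr1b had 0 counts in all 7 libraries, as had Mrgprd, another listed receptor. Agtr2, the type 2 receptor, had 0 counts in the 3 WT libraries and in A178D replicates 2 and 3, with 4 counts in A178D replicate 1 and 6 in A178D replicate 4, too few for a fold.

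Mas1, the receptor of the opposing arm, was low in all hearts. It (ENSMUSG00000068037, chromosome 17: 12841079-12868143, minus strand) was read at 1.96, 1.93 and 1.67 CPM in WT and at 1.56, 2.16, 1.73 and 0.926 CPM in A178D. A178D replicate 4 stood below the other 6 hearts, which overlapped. Mas1 had a log2 fold change of -0.20 (SE 0.27, 95% confidence interval -0.78 to 0.38, adjusted p = 0.760), -0.02 without A178D replicate 4, where Mas1 rested on 30 counts, and -0.38 without A178D replicate 2. The antisense gene Airn overlaps 19058 bases of Mas1 but none of its exons.

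Agtrap encodes a protein that binds the tail of the type 1 receptor and promotes its internalisation. It (ENSMUSG00000029007, chromosome 4: 148077061-148088031, minus strand) was read at 72.3, 75.3 and 70.9 CPM in WT and at 79.2, 75.9, 80.8 and 81.1 CPM in A178D. All A178D hearts were above all WT hearts, but A178D replicate 2 exceeded WT replicate 3 by a small margin. Agtrap means were 72.8 ± 2.24 CPM in WT and 79.2 ± 2.39 CPM in A178D. The difference of 0.12 on the log2 scale (SE 0.07, 95% confidence interval -0.02 to 0.26) did not pass the test (adjusted p = 0.381). A gap in this direction was seen in 7.61% of all genes tested.

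Of 18 listed receptors and signalling partners, 14 were tested and edgeR called none, with 2 at an unadjusted p under 0.05. The median log2 fold change was -0.02 (-0.06 without WT replicate 4 and 0.01 without WT replicate 1) and the range -0.38 to 0.16. The 2 were Rgs4 and Rgs5, which speed up the shut-off of G proteins coupled to this and other receptors. Rgs4 was read at 28.9, 26.7 and 26.7 CPM in WT and 18.0, 20.9, 21.1 and 24.2 CPM in A178D, and Rgs5 at 138, 148 and 155 CPM in WT and 126, 119.8, 123 and 97.9 CPM in A178D. For both genes every A178D heart was below every WT heart, as in 8.52% of all genes. Rgs4 had a log2 fold change of -0.38 (SE 0.10, adjusted p = 0.0635) and Rgs5 of -0.33 (SE 0.09, adjusted p = 0.0653). Both were called by DESeq2, with adjusted p of 0.0144 and 0.0127, and by edgeR without A178D replicate 4, with 0.0187 and 0.0495.

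Rgs5 is also a marker of pericytes, the cells around capillaries, and of the markers of mural cells only those of smooth muscle passed the test. The smooth muscle list, like the other lists, was chosen with earlier results of these data known. Each of 5 smooth muscle markers fell in A178D (5 of 5 called lower, against 1.31% of all genes), with a median log2 fold change of -0.67. Their summed level (Acta2 the most abundant per length, none at 0 in every library) was 442, 422 and 404 CPM in WT and 224, 290.3, 302 and 277 CPM in A178D, with no overlap. Acta2 (smooth muscle actin) fell by 0.59 (SE 0.09, adjusted p = 0.00587) and Tagln by 0.62 (SE 0.10, adjusted p = 0.00770), and both calls held when any 1 library was left out. Myh11 (-0.67, adjusted p = 0.0146), Cnn1 (-0.82, adjusted p = 0.0337) and Lmod1 (-0.70, adjusted p = 0.0427) were lost in some of these fits, so that 2 of the 5 remained without WT replicate 3 or WT replicate 4 and 3 without WT replicate 1, A178D replicate 1 or A178D replicate 3.

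For pericytes, 3 markers had an unadjusted p under 0.05, all lower in A178D, against 16.7% of all genes in either direction (1224 of 13894 lower). Of the 5 markers 0 were called by edgeR, with a median of -0.28. Their summed level (Abcc9 the most abundant per length, none at 0 in every library) was 909.8, 933 and 888 CPM in WT and 781, 826, 888 and 683 CPM in A178D. In tissue RNA, fewer cells of a type and less RNA per cell cannot be told apart, and the part of mural cells in the values of Rgs4, Rgs5 and Agtr1a was not tested.

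Nr3c2, the mineralocorticoid receptor, was the other member without overlap. It (ENSMUSG00000031618, chromosome 8: 76899442-77245012, plus strand) was read at 29.5, 28.3 and 27.1 CPM in WT and at 26.2, 26.5, 25.7 and 17.1 CPM in A178D. A178D replicate 4 stood far below the rest, and the other A178D hearts were just under the lowest WT heart. The mean was 28.3 ± 1.21 CPM in WT (SD, n = 3) and 23.9 ± 4.50 CPM in A178D (SD, n = 4), or 26.1 ± 0.418 CPM over the 3 A178D hearts without replicate 4.

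The log2 fold change of Nr3c2 was -0.24 (SE 0.13, 95% confidence interval -0.52 to 0.03, adjusted p = 0.366), and -0.12 without A178D replicate 4. The Nr3c2 transcript is long (6474 bases of merged exons), and in A178D replicate 4 it was at -0.61 on the log2 scale against the other A178D hearts. There, 5.63% of tested genes and 5.35% of the 3288 genes of like length were lower still. With the trends in length and GC content removed, the Nr3c2 difference was -0.21. The antisense gene Gm10649 covers 247 exonic bases of Nr3c2.

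Nr3c1, the glucocorticoid receptor, which like Nr3c2 binds corticosterone, was read at 139.9, 132 and 123 CPM in WT and at 120.8, 121, 123 and 109.7 CPM in A178D. The genotypes did not overlap, although WT replicate 4 and A178D replicate 3 were nearly level, and the log2 fold change was -0.15 (SE 0.07, adjusted p = 0.304). Of the enzymes that set which steroid reaches these receptors, Hsd11b1, which regenerates active glucocorticoid, stood at 22.9 ± 5.99 CPM in WT and 20.9 ± 1.93 CPM in A178D (log2 fold change -0.13, SE 0.15, adjusted p = 0.712, and -0.32 without WT replicate 1 to 0.03 without WT replicate 4). Hsd11b2, which inactivates glucocorticoid and so leaves the receptor to aldosterone in the kidney, had between 0 and 6 counts per library. Cyp11b1 and Cyp11b2, which make corticosterone and aldosterone in the adrenal gland, had 0 counts in all 7 libraries, as had the sodium channel subunit Scnn1g.

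Among the listed targets of these receptors, Lcn2 was the only gene called higher. Lcn2 (lipocalin 2), known as a mineralocorticoid target in the cardiovascular system, was read at 1.29, 1.39 and 1.62 CPM in WT and at 3.07, 2.18, 3.16 and 2.50 CPM in A178D, with no overlap. Its log2 fold change was 0.93 (SE 0.22, adjusted p = 0.0437), a fold of 1.90 (95% confidence interval 1.37 to 2.64). The Lcn2 call is close to the threshold. It was lost without WT replicate 1 (adjusted p = 0.0926), WT replicate 3 (0.175), WT replicate 4 (0.0980), A178D replicate 1 (0.137) or A178D replicate 3 (0.110), and with limma-voom (0.0599), at log2 fold changes of 0.85 to 1.03 when 1 library was left out.

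Sgk1, a kinase induced by both receptors, was read at 58.9, 63.9 and 56.3 CPM in WT and at 45.1, 63.2, 74.8 and 68.5 CPM in A178D (log2 fold change 0.08, SE 0.13, adjusted p = 0.825, and -0.02 without A178D replicate 3 to 0.21 without A178D replicate 1). The A178D hearts lay on both sides of WT. Fkbp5, a chaperone partner of both receptors and a classical glucocorticoid target, was read at 14.3, 18.0 and 23.6 CPM in WT and at 14.8, 14.1, 13.1 and 13.7 CPM in A178D. The WT hearts were spread widely and the A178D hearts lay together near WT replicate 1. The log2 fold change of Fkbp5 was -0.42 (SE 0.14, adjusted p = 0.143), that of Tsc22d3 (the glucocorticoid-induced leucine zipper) -0.30 (SE 0.11, adjusted p = 0.168) and that of the clock gene Per1 -0.27 (SE 0.16, adjusted p = 0.427). These 3 genes were singled out after their values were seen. Without WT replicate 1, Fkbp5 (-0.58, adjusted p = 0.0176) and Tsc22d3 (-0.41, adjusted p = 0.0428) were called lower, whereas Fkbp5 was at -0.22 without WT replicate 4 (adjusted p = 0.457) and Tsc22d3 at -0.23 without WT replicate 3 (adjusted p = 0.458). Per1 ran from -0.37 without A178D replicate 3 to -0.11 without A178D replicate 1.

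Over the 15 listed genes of the mineralocorticoid and glucocorticoid receptor arm, 10 were tested, 1 was called higher (1.04% of all genes were) and 0 lower, with 3 at an unadjusted p under 0.05. The median log2 fold change was -0.14 (-0.21 without WT replicate 1) and 7 of the 10 were below 0.

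Atp6ap2, named the prorenin receptor and also an accessory subunit of the vacuolar ATPase, the proton pump of lysosomes, is X-linked (ENSMUSG00000031007, chromosome X: 12587801-12617049, plus strand). It was read at 20.4, 24.0 and 24.0 CPM in WT and at 22.1, 19.7, 21.6 and 21.1 CPM in A178D. WT replicates 3 and 4 were above all A178D hearts and WT replicate 1 below all but A178D replicate 2. Atp6ap2 had a log2 fold change of -0.11 (SE 0.09, 95% confidence interval -0.30 to 0.09, adjusted p = 0.583), and of -0.18 without WT replicate 1 and -0.07 without WT replicate 3.

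Its partner Atp6ap1 stood at 177 ± 7.65 CPM in WT and 177 ± 6.22 CPM in A178D (log2 fold change 0.0048, SE 0.06, adjusted p = 0.982), with a sign that changed between settings. None of the 16 listed subunits of the vacuolar ATPase was called by edgeR, 1 had an unadjusted p under 0.05, and their log2 fold changes ran from -0.06 to 0.34 with a median of 0.04 (0.0053 without WT replicate 1 and 0.071 without WT replicate 3). Atp6v0e2, a subunit of the membrane part, stood at 13.6 ± 2.06 CPM in WT and 17.2 ± 1.22 CPM in A178D with no overlap (log2 fold change 0.34, SE 0.12, adjusted p = 0.155, and 0.22 without WT replicate 1), and its paralogue Atp6v0e at 30.2 ± 2.17 and 33.4 ± 4.38 CPM (log2 fold change 0.14, SE 0.10, adjusted p = 0.532, and 0.076 without A178D replicate 4 to 0.23 without A178D replicate 2).

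In the main edgeR fit, genes known to respond to angiotensin II in the heart held all calls of the pathway lists except Lcn2. Of 23 listed genes 22 were tested, 5 were called higher (against 1.04% of all genes) and 0 lower, with 10 at an unadjusted p under 0.05 (8 higher and 2 lower). The median log2 fold change was 0.27 (0.13 without A178D replicate 2 and 0.45 without WT replicate 1) and the range -0.38 to 2.64. Many of these genes also respond to stretch and to other hormones, so the list is not specific for angiotensin II. The list was chosen with earlier results of these data known, and the paper had already placed Acta1 and Nppa among its most upregulated genes. Its count of calls is therefore not independent of that choice.

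Acta1 (skeletal actin, a fetal gene of the ventricle) was read at 183, 72.0 and 69.3 CPM in WT and at 811, 495, 706 and 672 CPM in A178D, and Nppa (atrial natriuretic peptide) at 249, 188 and 109 CPM in WT and at 529, 364, 322 and 588 CPM in A178D. Neither gene overlapped between genotypes. Acta1 rose by 2.64 on the log2 scale (SE 0.29, adjusted p = 0.000651) and was called whichever library was left out. Nppa rose by 1.31 (SE 0.24, adjusted p = 0.0146), with the call lost without WT replicate 3 (0.0860), WT replicate 4 (0.0598) or A178D replicate 1 (0.0555). Actin and myosin genes have near-identical relatives in muscle, so their counts are uncertain as far as reads were shared between copies, and Gm13054 covers 532 exonic bases of Nppa on the other strand.

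Rcan1, a feedback inhibitor of calcineurin that calcineurin itself induces, was read at 87.5, 65.1 and 59.7 CPM in WT and at 137, 106, 85.7 and 111 CPM in A178D. A178D replicate 3 lay below WT replicate 1, so Rcan1 overlapped between genotypes. Rcan1 rose by 0.63 (SE 0.15, adjusted p = 0.0394), a call that DESeq2 did not make (adjusted p = 0.0631) and that was lost without WT replicate 3 (0.194), WT replicate 4 (0.182), A178D replicate 1 (0.115), A178D replicate 2 (0.0626) or A178D replicate 4 (0.0545).

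Col3a1 (collagen III) was read at 248, 213 and 140.6 CPM in WT and at 303, 324, 305 and 306 CPM in A178D. The A178D hearts lay close together above a scattered WT group. Col3a1 rose by 0.62 (SE 0.14, adjusted p = 0.0317), with the call lost without WT replicate 3 (0.113), A178D replicate 1 (0.0840), A178D replicate 2 (0.0672) or A178D replicate 3 (0.0712). Dcn (decorin), the most abundant fibroblast marker per length, stood at 579 ± 53.6 CPM in WT and 580.4 ± 44.1 CPM in A178D, a log2 fold change of 0.0026 whose sign changed between settings. Of the 6 fibroblast markers 0 were called. An unadjusted p under 0.05 was seen for 3, all higher in A178D, against 16.7% of all genes in either direction (1102 of 13894 higher). These 3 did not overlap between genotypes, as 7.61% of all genes did not in this direction. The median of the 6 was 0.12 (0.06 without A178D replicate 1). Their summed level was 882, 947 and 909.9 CPM in WT and 1062, 965, 931 and 948 CPM in A178D.

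Of the list's other genes, Myh7 (slow myosin) had a log2 fold change of 0.84 (SE 0.22, adjusted p = 0.0670) and Nppb (B-type natriuretic peptide) of 0.80 (SE 0.30, adjusted p = 0.194). WT replicate 1 was the WT heart with the most Myh7 (783 CPM against 336 and 398) and Nppb (177.6 CPM against 96.6 and 66.1), and in both it reached into the A178D range. Without it both were called higher, Myh7 at 1.31 (adjusted p = 9.31e-05) and Nppb at 1.28 (adjusted p = 0.0149), among 8 calls on the list. With all 7 libraries Myh7 was also called by limma-voom (adjusted p = 0.0379), with no filter on low counts (0.0217), with the length and GC offsets (0.0379) and with the replicate block. Myh7 was at 0.62 without WT replicate 3 and Nppb at 0.52 without WT replicate 4, and their adjusted p values reached 0.260 and 0.463 when 1 library was left out. On the other strand, Gm31251, Mhrt and Gm29015 cover 523, 484 and 142 exonic bases of Myh7. Without WT replicate 3 there was 1 call on the list, without A178D replicate 1 there were 2, and without WT replicate 4, A178D replicate 2 or A178D replicate 3 there were 3.

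**Figure D2:**
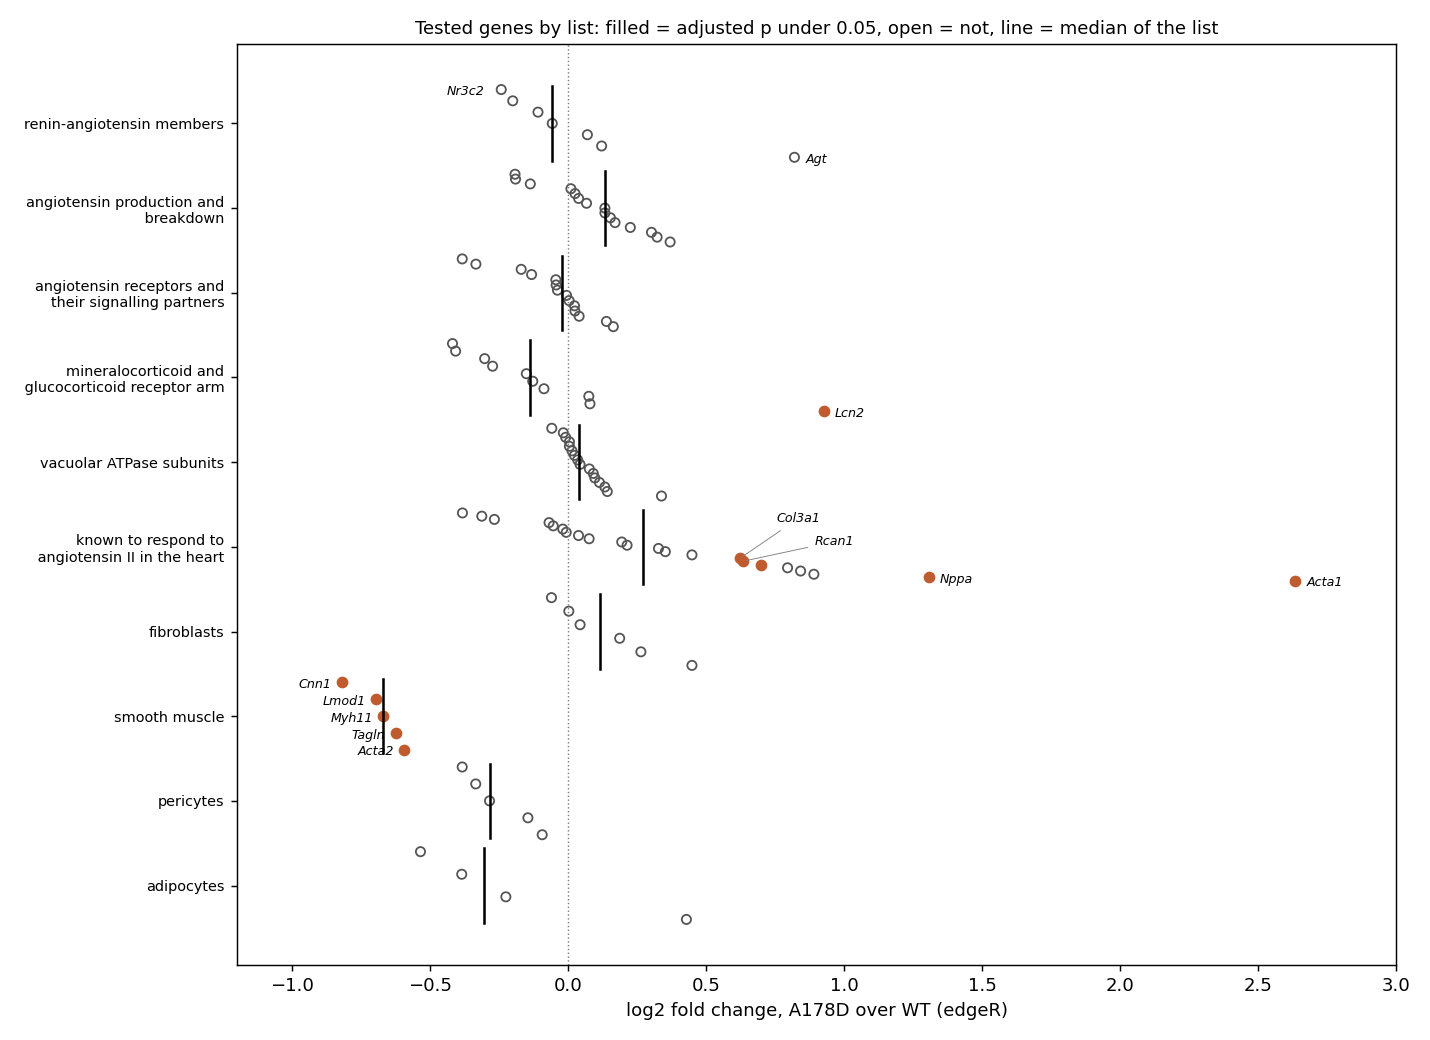
Log2 fold change (A178D over WT, edgeR) of each tested gene of the renin-angiotensin members, the 5 pathway lists and 4 cell marker lists, with 1 point per gene, filled where the adjusted p was under 0.05 and a line at the median of each list. Calls were seen among the genes known to respond to angiotensin II (5 higher, 4 of them labelled), for Lcn2, and among smooth muscle markers (5 lower), while the 7 members held none.

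The remaining cell markers showed no call apart from Nppa, which the atrial list shares. For cardiomyocytes 0 of 7 were called and 0 had an unadjusted p under 0.05 (median -0.03, and -0.09 without A178D replicate 4 to 0.04 without WT replicate 4). For macrophages 0 of 6 were called. An unadjusted p under 0.05 was seen for 3 of them, all higher in A178D, against 16.7% of all genes in either direction (1102 of 13894 higher). The macrophage median was 0.25 (0.14 without WT replicate 1 and 0.15 with the length and GC offsets). C1qa stood at 47.5 ± 10.1 CPM in WT and 58.2 ± 5.05 CPM in A178D. Of the atrial list 2 genes were tested, 2 had an unadjusted p under 0.05 and 1, Nppa, was called (median 0.98), and of the epicardial list 1, Wt1, was tested (-0.29, adjusted p = 0.398, and -0.15 without WT replicate 1). The count of calls over all genes itself moved with single hearts, from 22 higher and 31 lower without WT replicate 3 to 215 higher and 238 lower without WT replicate 1.

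Levels of the 7 members were compared with each other as CPM per kilobase of merged exons, averaged over the 7 hearts. The order was Agtr1a (20.2 ± 1.63, SD, n = 7), Agtrap (18.1 ± 0.953), Ace (17.6 ± 1.67), Atp6ap2 (8.35 ± 0.631), Nr3c2 (3.98 ± 0.622), Agt (1.86 ± 0.676) and Mas1 (0.651 ± 0.152). The ranges of the first 3 overlapped, so their order is not resolved with this length. Per kilobase of the longest transcript Agtr1a (23.3 to 29.3) was above Ace (at most 22.0) and Agtrap (at most 20.3) in all hearts, so whether the ranges separate depends on the length used, while Agtr1a had the highest mean with both lengths. Atp6ap2 and Nr3c2 did not overlap with their neighbours. Agt and Mas1 overlapped in range, at 0.785 to 2.61 and 0.354 to 0.826, through Agt in WT replicate 1 and Mas1 in A178D replicate 2. Within each of the 7 hearts Agt was above Mas1, with WT replicate 1 the closest (0.785 against 0.748). For comparison Nr3c1 stood at 16.2 ± 1.23 and Atp6ap1 at 58.6 ± 2.06 CPM per kilobase, so that per length Nr3c1 exceeded Nr3c2 in all 7 hearts.

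The genes most like 3 of the members across the 7 hearts were found by the root mean square distance of log2 CPM, each gene centred on its own mean. For Agt these were Vdr (0.21), Cfap300 (0.21) and Fgfr2 (0.23), where the median distance over all genes was 0.61 and the deviation of Agt itself 0.59. These distances are the smallest over all tested genes, so they lie below the median by selection. Vdr, the vitamin D receptor, was read at 0.495, 0.697 and 1.08 CPM in WT and at 1.59, 1.44, 0.914 and 1.73 CPM in A178D. WT replicates 1 and 3 were low and WT replicate 4 lay inside the A178D range, the pattern of Agt by which Vdr was picked. Vdr was not called (adjusted p = 0.195 in edgeR). For Ace they were Atp13a2 (0.048), Ecscr (0.051), an endothelial gene, and Zgpat (0.052), and for Agtr1a Galnt7 (0.038), Hk3 (0.046) and Bhlhe40 (0.047), where the median distances were 0.20 and 0.19.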

How the data were processed

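RNA from 3 WT and 4 A178D left ventricles had been made into stranded poly(A) libraries and sequenced from both ends. The authors deposited raw counts per gene, without normalization. Submitters' processing notes name bcl2fastq 2.18.0.12, HISAT2 2.1.0, SAMtools 1.6, DESeq2 1.26.0 and GRCm38, while the counting program and annotation are not given in the sources used here. A second deposited table of DESeq2-normalized values was not used. Of counts from 1 to 20, 17.6 to 20.3% were odd, so most low counts are even numbers and a count may not stand for 1 fragment.

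Names, positions and lengths came from GENCODE release M21 (GRCm38) by Ensembl identifier, with 268 of 21257 entries unmatched. Of 442 entries in 219 sets with identical counts (30 or more), 223 were removed, which with other exact repeats left 20927 genes. Of the listed genes, Atp6v1c1 had such a twin. The libraries held 33080675 to 54245530 counts, of which tested genes took 99.986%.

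The comparison used edgeR 4.0.16 in R 4.3.3 (TMM, glmQLFit and glmQLFTest, two-sided, no covariate, at least 10 counts in at least 3 libraries, Benjamini-Hochberg adjusted p under 0.05 over all 13894 genes). Biological variation was 0.111 as a coefficient of variation. Replicates are separate hearts by their labels. The code was tested on simulated data. Floors cover counting error only, and no p was computed for a list.

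Alternatives were DESeq2 1.42.0, its size factors in edgeR, limma-voom (limma 3.58.1), no filter, a stricter filter (10 counts or more in each library), a block for the replicate number, a threshold of 0.01, halved counts, the table with every entry, offsets for length and GC content (mgcv 1.9.3, basis size 6, values for 99.9856% of tested genes), the longest transcript as length, and each library left out in turn.

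The members and lists were chosen with earlier results of these data known. Genes were named by a rule: the members and 10 partners; called genes of the 5 pathway lists; where a list had none, its 2 largest differences at a mean of at least 50 counts; each marker list's most abundant gene per length and its called genes; and the 3 nearest profiles of Agt, Ace and Agtr1a. Genes read at 0 in every library were named too, and Fkbp5, Tsc22d3, Per1, Myh7, Nppb, Myl4, Lnpep, Ctsd and the named antisense genes were named after their values were seen. Of the genes the rule takes, 2 are not reported here, and they remain in the counts, medians and ranges of their lists.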

Additional observations from a re-analysis of the deposited data

Results flagged for a closer look

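Of 45 genes looked at for this, 5 had 1 A178D heart set apart from the other 3 by a gap that took up most of the range of the 4, which need not be a large distance. Chance gives about 1 in 20 for a gene taken at random. The 45 include genes named after their values were seen, Lnpep among them, and several flags fall in the same heart. The count of flags is therefore no measure of an excess over chance. Nr3c2 was at 17.1 CPM in A178D replicate 4 (others 25.7 to 26.5), Nr3c1 at 109.7 CPM (120.8 to 123) and Lnpep, an aminopeptidase that binds angiotensin IV, at 50.9 CPM (91.3 to 99.0) in the same heart. Its trend with transcript length is given with the library depths. With the offsets for length and GC content the log2 fold change of A178D over WT was -0.21 for Nr3c2 (-0.24 without them), -0.09 for Nr3c1 (-0.15) and -0.09 for Lnpep (-0.19). Leaving out A178D replicate 4 gave -0.12 for Nr3c2 and -0.02 for Lnpep. Col3a1 was at 324 CPM in A178D replicate 2 (303 to 306), and Dcn at 646 CPM in A178D replicate 1 (555 to 562).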

How the results depend on the processing

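No member was called under any alternative except Agt, with DESeq2 (0.81, adjusted p = 0.0486) and without WT replicate 4. Genes called higher numbered 290 with DESeq2, 223 with the length and GC offsets and 24 at an adjusted p under 0.01, and genes called lower 375 with DESeq2 and 40 at 0.01. Receptor partners called lower numbered 2 with DESeq2, no filter or the offsets and 1 with limma-voom, and higher calls in the mineralocorticoid arm 0 with limma-voom. With the offsets Agtr1a was at 0.03 and Ctsd at 0.07. Atp6ap1 changed sign with them (-0.034), as did Myl2 (-0.056), and Dcn with no filter (-0.00081). Per kilobase of the longest transcript Agtr1a stood at 25.6, Agtrap at 19.1 and Atp6ap2 at 9.40 CPM, in the same order. Leaving out each library in turn gave 22 to 215 genes called higher and 31 to 238 lower. It gave 0 to 2 receptor partners lower, 0 to 1 higher and 0 to 2 lower in the mineralocorticoid arm, 1 to 8 angiotensin II-responsive genes higher (median 0.13 to 0.45) and 2 to 4 smooth muscle markers lower. Medians ran from -0.088 to 0.035 for cardiomyocytes and -0.035 to 0.064 for endothelium. Log2 fold changes ran from 0.56 to 1.26 for Agt, -0.13 to 0.046 for Ace, -0.32 to 0.032 for Hsd11b1, -0.019 to 0.21 for Sgk1, -0.024 to 0.035 for Atp6ap1, -0.022 to 0.061 for Myl2 and -0.067 to 0.058 for Dcn. Leaving out 1 library raised the counts of calls in some fits and lowered them in others. Apart from the stricter threshold, the cause of these moves was not tested. At least 10 counts in every library left no adipocyte marker.

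Hearts with the same replicate number were no more alike than other pairs of a WT and an A178D heart. The correlations of deviations were 0.0031, -0.040 and -0.042 for numbers 1, 3 and 4, and from -0.070 to 0.066 for unlike numbers. A shared litter or batch was not tested. A178D replicate 2 has no WT heart of its number, so in the block fit it adds nothing to the difference between genotypes. With the replicate block, 124 genes were called higher and 147 lower, Lcn2 (adjusted p = 0.0608) and Cnn1 (0.0617) were not called, which left 0 higher calls in the mineralocorticoid arm, Myh7 (0.0107) and Nppb (0.0373) were called, and Atp6ap1 was at -0.013, Mas1 at -0.42 and Cma1 at 0.66.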
